A study of Mus musculus with 6 samples.

Results

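The genes described here are *Clec11a* and 9 C-type lectin genes of myeloid cells (*Clec4a2*, *Clec4a3*, *Clec4d*, *Clec4e*, *Clec4n*, *Clec5a*, *Clec7a*, *Clec10a* and *Clec12a*). They were found by their symbols in the RNA-sequencing table of the series, where these 10 genes fill 11 of 41128 rows, because *Clec7a* has a second row. *Clec11a* was included for its strong rise in *Hoxa9*/*IRX3* leukemias, so its difference between the cohorts is given as a description without a test. The other 9 genes belong to the family by name. The series holds 6 mice, with 1 library each: 3 with *Hoxa9*/MTV leukemia (mice 1.1, 1.2 and 1.4) and 3 with *Hoxa9*/*IRX3* leukemia (mice 3.2, 3.3 and 3.5). Donor hematopoietic stem and progenitor cells of CD45.1+ mice had been transduced with retroviral *Hoxa9* together with either the empty control vector MTV or human *IRX3*, and were transplanted with unfractionated CD45.2+ marrow into lethally irradiated young adult female C57BL/6 recipients. Both cohorts therefore share enforced *Hoxa9*, driven by a retroviral vector in the transplanted cells. When recipients became sick with acute myeloid leukemia (AML), CD45.1+ KIT+Gr1+ leukemia cells were flow sorted from bone marrow (BM).

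C-type lectins share a fold that in many of its members binds sugars with the help of calcium. On monocytes, neutrophils, macrophages and dendritic cells, the membrane-bound members sense fungal and bacterial glycans or debris of dying cells. Activating receptors reach the kinase SYK through the adaptor chains FcR-gamma (*Fcer1g*) or DAP12 (*Tyrobp*), or through a motif of their own in the case of dectin-1, and the relay then passes through PRKCD and CARD9. Inhibitory receptors carry a tyrosine motif in their tail that recruits the phosphatases SHP-1 and SHP-2. The product of *Clec11a*, also called stem cell growth factor or osteolectin, is unlike these receptors, since it is secreted and is known as a growth factor for hematopoietic progenitors and for bone-forming cells.

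The promoters of *Clec11a*, *Clec5a* and *Clec12a* are printed because the results below turn on these 3 genes. The windows run from 250 bases before to 50 bases after the RefSeq start site on GRCm38.p6. They lie at chr7:44306910-44307209 on the minus strand for *Clec11a*, at chr6:40585756-40586055 on the minus strand for *Clec5a* and at chr6:129349994-129350293 on the plus strand for *Clec12a*. The *Clec12a* window lies inside the gene span used for its level, chr6:129342691-129365303, which begins upstream of this RefSeq start site. Capitals mark matches on either strand to AGGAAG, a core bound by the myeloid factor PU.1, or to TTGCNNAA, a core bound by C/EBP factors.
Clec11a promoter: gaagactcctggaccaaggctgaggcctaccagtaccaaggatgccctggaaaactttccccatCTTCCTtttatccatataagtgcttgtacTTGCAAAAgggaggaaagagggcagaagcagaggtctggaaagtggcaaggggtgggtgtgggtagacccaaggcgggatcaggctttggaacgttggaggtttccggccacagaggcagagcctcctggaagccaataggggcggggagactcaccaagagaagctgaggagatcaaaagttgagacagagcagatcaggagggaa
Clec5a promoter: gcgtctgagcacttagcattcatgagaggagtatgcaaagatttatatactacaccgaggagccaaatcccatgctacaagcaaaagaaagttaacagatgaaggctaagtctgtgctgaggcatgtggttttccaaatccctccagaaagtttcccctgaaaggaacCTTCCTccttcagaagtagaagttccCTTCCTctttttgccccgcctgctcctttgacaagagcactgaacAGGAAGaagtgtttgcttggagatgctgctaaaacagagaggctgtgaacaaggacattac
Clec12a promoter: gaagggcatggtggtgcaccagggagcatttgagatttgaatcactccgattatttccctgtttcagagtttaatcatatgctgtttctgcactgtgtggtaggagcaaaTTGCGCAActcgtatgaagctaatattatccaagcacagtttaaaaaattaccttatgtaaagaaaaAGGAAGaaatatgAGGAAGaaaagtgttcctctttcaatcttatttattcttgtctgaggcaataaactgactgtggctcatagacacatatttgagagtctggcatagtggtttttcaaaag
The *Clec11a* window held 1 match to AGGAAG, at position -186 from the start site, and 1 to TTGCNNAA, at position -157. The *Clec12a* window held 2 matches to AGGAAG, at -73 and -60, and 1 to TTGCNNAA at -140, and the *Clec5a* window held 3 matches to AGGAAG and 0 to TTGCNNAA. Among all 32817 RefSeq promoter windows of this length, 35.4% held AGGAAG and 10.8% held TTGCNNAA, so that such matches are common. Another core, ACANNTGT, of the kind bound by Iroquois factors, occurs in 7.38% of all windows and in 0 of the 10 windows that matched 8 of these genes (*Clec4a3* and *Clec7a* have 2 each). These are matches of letters, not measured binding sites. The GC content of the *Clec11a* window was 54.0%, beside a median of 52.7% over all windows, and that of *Clec5a* was 45.7% and that of *Clec12a* 37.7%. *Clec4n* and *Clec10a* had no entry.

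The unit is RPKM, reads divided by gene length and by library size. The length is that of the whole gene with its introns, and the library sizes, inferred from the steps between low values, were 7979246 to 9803621 reads. Reads computed with these sizes summed over genes to 8408711 to 10235486, which is more than the inferred size in every library. Genes were tested with limma on log2(RPKM + 0.5) and adjusted by the Benjamini-Hochberg method over 9528 genes that had over 0.5 RPKM in at least 1 mouse. A gene was called at an adjusted p under 0.05 and a difference of at least 2-fold on that scale. The pseudocount makes differences of low genes smaller. Differences below are *Hoxa9*/*IRX3* minus *Hoxa9*/MTV on the log2 scale. Each mouse is 1 recipient. The sources do not say whether the mice of a cohort received cells of separate transductions, so the spread between mice may be smaller than that between independent leukemias. Mouse *Irx3*, to which part of the reads of the introduced human sequence may align, read 15.1, 0.421 and 0.148 RPKM in mice 3.2, 3.3 and 3.5 and was listed at 0 in the 3 *Hoxa9*/MTV mice. The mean of *Hoxa9* was 292 ± 103 RPKM in the control cohort and 206 ± 45.9 RPKM in *Hoxa9*/*IRX3* mice (SD, n = 3 each). The *Hoxa9*/*IRX3* mice were less alike than the *Hoxa9*/MTV mice (Pearson r between libraries, across genes, of 0.917 to 0.925 against 0.978 to 0.983). The sorted-cell genes *Kit* (1.63 to 3.12 RPKM), *Ly6c2* (413 to 844 RPKM) and *Ptprc* (1.53 to 2.09 RPKM) were read in every library. *Ly6g*, which with *Ly6c2* makes up the Gr1 antigen, was at 0.0532 to 0.145 RPKM in *Hoxa9*/MTV and at 0.682 to 1.42 RPKM in *Hoxa9*/*IRX3* mice and was called higher (log2 difference 1.35, limma adjusted p = 0.0206). It passed the threshold of 0.5 RPKM through the *Hoxa9*/*IRX3* mice alone, so that a difference was built into its passing. Without that filter its limma adjusted p was 0.0384. In these bulk samples, fewer cells that express a gene and less of its RNA per cell cannot be told apart.

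*Clec11a* (ENSMUSG00000004473, chr7:44302687-44306902, minus strand) was at 1.67, 4.23 and 4.34 RPKM in mice 1.1, 1.2 and 1.4. In mice 3.2, 3.3 and 3.5 it was at 142, 73.2 and 71.0 RPKM. The lowest *Hoxa9*/*IRX3* mouse thus lay far above the highest *Hoxa9*/MTV mouse, and mice 1.1 and 3.2 stood apart from the other 2 of their cohorts. The values rest on 62, 148 and 177 reads in *Hoxa9*/MTV and on 5288, 3025 and 2390 reads in *Hoxa9*/*IRX3* libraries. The cohort means were 3.41 ± 1.51 RPKM (SD, n = 3) and 95.3 ± 40.1 RPKM (SD, n = 3), a ratio of 27.9, and the log2 difference was 4.63 (SE 0.41). With each mouse left out in turn, that difference lay between 4.25 and 4.83. This gene was picked on these values, so they are not evidence of their own direction.

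Stromal cells of the bone marrow are also known to make *Clec11a*, and markers of stroma and vessels were read beside it. The cells had been sorted as donor CD45.1+ KIT+Gr1+, and how much stroma remained after the sort was not measured. *Sparc* was listed at 0 in all 6 mice. *Lepr* reached at most 0.0230 RPKM, *Col1a1* at most 0.114 RPKM and *Pdgfra* at most 0.0156 RPKM. The summed level of the 10 stroma and vessel markers was 2.91 to 4.05 RPKM in *Hoxa9*/MTV with a wider range in *Hoxa9*/*IRX3* mice, most of it *Pecam1* and *Pdgfrb*. In mice 3.2, 3.3 and 3.5 the sums were 0.585, 3.65 and 6.69 RPKM. Of the 10 markers 9 were read in at least 1 mouse, 2 were tested and 0 were called, beside 3.17% of all tested genes. The 2 log2 differences were -1.25 and 0.18, and 1 of the 2 passed the expression threshold through 1 cohort alone. Without overlap between the cohorts 1 was lower and 0 higher, beside 21.6% and 12.2% of all tested genes. An unadjusted p under 0.05 in limma was found in 1, beside 2318 of 9528. The part of stroma and vessel cells in the *Clec11a* values was not tested. The integrin chains that bind the secreted protein were looked up as well. *Itga11*, the alpha chain of its known receptor, was listed at 0 in every mouse, and *Itgb1*, the shared beta chain, was at 4.91 to 5.45 RPKM in *Hoxa9*/MTV and at 6.33 to 7.64 RPKM in *Hoxa9*/*IRX3* mice (log2 difference 0.36, limma adjusted p = 0.140). *Itga10*, another alpha chain looked up, had 2 to 33 reads per library (0.0127 to 0.178 RPKM) and did not pass the expression threshold.

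To compare levels between genes, reads were divided by exon length instead of gene span. On this exon-length RPKM scale *Clec12a* was the highest of the 10 genes in *Hoxa9*/MTV cells, at 171 ± 22.7 (SD, n = 3), and its range did not reach that of *Clec7a* (43.4 ± 4.46) or *Clec4a2* (41.7 ± 2.36), which overlapped each other. *Clec4e* (20.7 ± 4.57) and *Clec5a* (12.1 ± 3.80) came next, with ranges apart from their neighbors in the order. *Clec11a* was seventh in *Hoxa9*/MTV cells, at 4.83 ± 2.14, with a range that overlapped those of *Clec4d* (4.89 ± 1.89) above it and *Clec4a3* (3.90 ± 1.30) below it. *Clec10a* (2.82 ± 0.858) overlapped *Clec4a3*, and *Clec4n* was last at 0.233 ± 0.0610. In *Hoxa9*/*IRX3* cells *Clec11a* stood second, at 135 ± 56.8, in a range that overlapped the first, *Clec12a* (139 ± 122). The range of *Clec11a* did not overlap that of the third gene, *Clec5a* (42.5 ± 27.4). From *Clec5a* through *Clec4a2* (22.3 ± 24.6), *Clec7a* (21.03 ± 4.96), *Clec4e* (17.6 ± 12.9) and *Clec4d* (5.73 ± 2.503), each gene's range overlapped that of the next. *Clec4a3* (0.781 ± 0.833), *Clec4n* (0.542 ± 0.656) and *Clec10a* (0.235 ± 0.303) formed the low end.

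**Figure D1:**
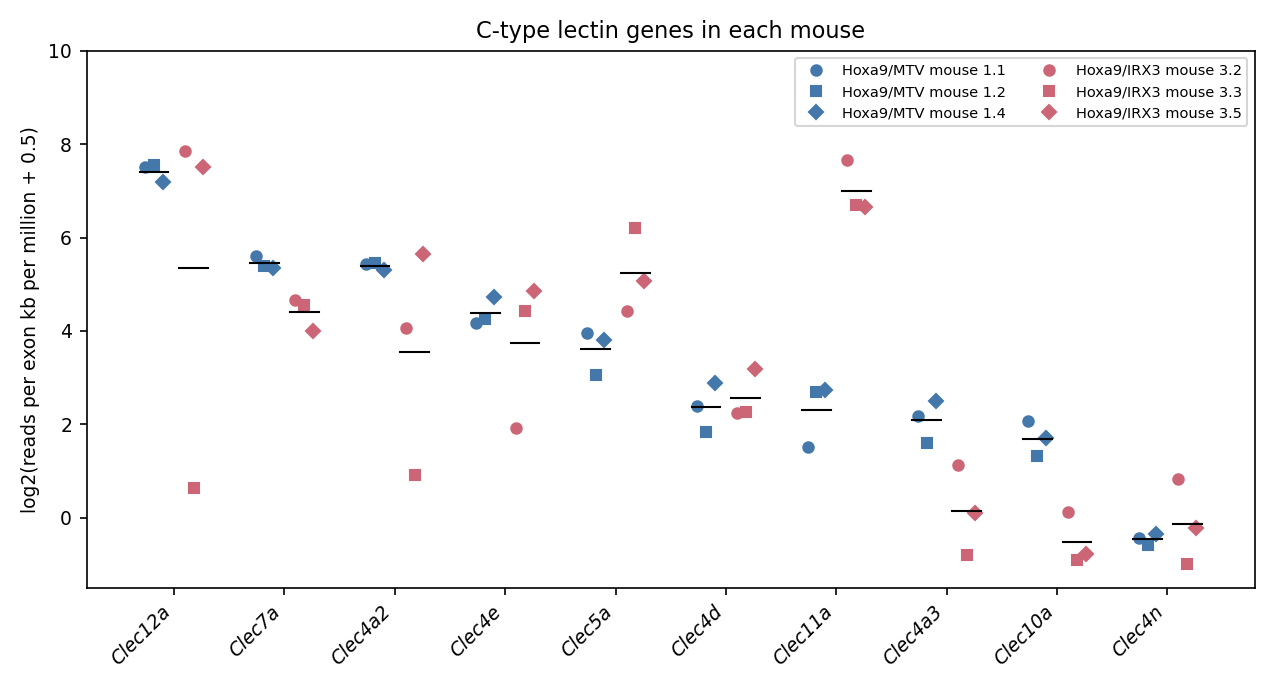
Level of the 10 C-type lectin genes in each of 6 mice, as log2(exon-length RPKM + 0.5), ordered by the *Hoxa9*/MTV mean. Points are mice, colored by cohort, and bars are cohort means; *Clec11a* moves from the lower part of the order at 4.83 to 135 on the linear scale, and mouse 3.3 lies far below the other mice in *Clec12a*.

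Reads of *Clec11a* made up 0.490%, 1.26% and 1.47% of the reads on the 10 genes in mice 1.1, 1.2 and 1.4. In mice 3.2, 3.3 and 3.5 the share was 28.4%, 39.9% and 16.8%. The 10 genes together took 11790 to 12642 reads in *Hoxa9*/MTV libraries and 18602, 7578 and 14202 reads in mice 3.2, 3.3 and 3.5. The sum was lowest in mouse 3.3, where *Clec12a* made up 0.752% of it, beside 56.8% to 72.5% in the other mice. *Clec11a* itself had 3025 reads in mouse 3.3 and 5288 in mouse 3.2, so its larger share in mouse 3.3 does not mean more of its reads.

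Among the 9 genes other than *Clec11a*, 7 passed the expression threshold and 0 were called in either direction by limma, where 3.17% of all tested genes were called. Of the 7, 2 had an adjusted p under 0.05, beside 5.46% of all genes. An unadjusted p under 0.05 was found in 3 of the 7, beside 2318 of all 9528 tested genes. Those 2, *Clec7a* and *Clec10a*, were both lower in *Hoxa9*/*IRX3* cells and stayed just under 2-fold on the log2(RPKM + 0.5) scale. *Clec10a* passed the expression threshold through *Hoxa9*/MTV mice alone, the cohort where it is higher, and without that filter its limma adjusted p was 0.0405. With a pseudocount of 0.1, both are past the limit, as they are with the study's criterion (unadjusted p with a ratio of means over 2), with limma voom on recovered reads and with RPKM on exon length. Without mouse 3.2, *Clec7a*, *Clec10a* and *Clec5a* were called. Of the 7, 1 gene was higher and 2 were lower with no overlap between the cohorts, beside 12.2% and 21.6% of all tested genes (33.8% in all). The median log2 difference of the 7 was -0.95, beside -0.06 over all tested genes.

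Among the activating receptors, *Clec7a* (ENSMUSG00000079293, chr6:129461591-129472779, minus strand) encodes dectin-1, the receptor for fungal beta-glucan that signals to SYK through its own motif. It was at 11.4, 9.77 and 9.48 RPKM in mice 1.1, 1.2 and 1.4 and at 5.83, 5.42 and 3.63 RPKM in mice 3.2, 3.3 and 3.5. The cohorts did not overlap and the spread within each was small. The means were 10.2 ± 1.05 and 4.96 ± 1.17 RPKM (SD, n = 3 each), a ratio of *Hoxa9*/MTV to *Hoxa9*/*IRX3* of 2.06, with a log2 difference of -0.99 (SE 0.19, limma adjusted p = 0.0377). The adjusted p lay between 0.0333 and 0.143 when single mice were left out. The second row under this symbol, which has no entry in the annotation used and was not tested, was at 3.28 to 4.09 RPKM in *Hoxa9*/MTV and at 1.46 to 2.12 RPKM in *Hoxa9*/*IRX3* mice. The 2 rows may share reads.

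*Clec5a* (chr6:40574894-40585821, minus strand) encodes MDL-1, a receptor of monocytes and neutrophils that signals through DAP12 and DAP10. Its level was 5.28, 2.75 and 4.77 RPKM in mice 1.1, 1.2 and 1.4 and 7.39, 25.8 and 11.7 RPKM in mice 3.2, 3.3 and 3.5. The lowest *Hoxa9*/*IRX3* mouse stood above the highest *Hoxa9*/MTV mouse, but mouse 3.3 was more than 2 times either of the others of its cohort. The means were 4.27 ± 1.33 and 14.9 ± 9.62 RPKM (SD, n = 3 each), with a log2 difference of 1.56 (SE 0.46) that did not pass the test (limma adjusted p = 0.102). Without mouse 3.2 the difference was 1.95 and was called (limma adjusted p = 0.0482).

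*Clec4d*, *Clec4e* and *Clec4n* lie side by side on chromosome 6 and encode MCL, Mincle and dectin-2, which pair with FcR-gamma and bind mycobacterial glycolipids (MCL and Mincle) or fungal mannans (dectin-2). *Clec4e* (chr6:123281789-123289870, minus strand) was at 10.8, 11.4 and 15.9 RPKM in mice 1.1, 1.2 and 1.4 and at 2.02, 12.9997 and 17.4 RPKM in mice 3.2, 3.3 and 3.5. Only mouse 3.2 was low, on 145 reads, and the other 2 *Hoxa9*/*IRX3* mice lay within or above the *Hoxa9*/MTV range. The log2 difference was -0.62 (SE 0.71, limma adjusted p = 0.622) and turned to 0.26 without mouse 3.2.

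*Clec4d* (chr6:123262111-123275265, plus strand) was at 0.576, 0.375 and 0.833 RPKM in mice 1.1, 1.2 and 1.4 and at 0.514, 0.527 and 1.05 RPKM in mice 3.2, 3.3 and 3.5. The cohorts overlapped, at 41 to 110 reads per library, and the log2 difference was 0.12 (SE 0.23, limma adjusted p = 0.778). *Clec4n* (chr6:123229843-123247021, plus strand) did not pass the expression threshold. It had 3, 2 and 4 reads in mice 1.1, 1.2 and 1.4 and 16, 0 and 4 reads in mice 3.2, 3.3 and 3.5, where 3 reads, taken as the floor, equal 0.0178 to 0.0219 RPKM. A difference in *Clec4n* could not be assessed at this depth.

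Of the genes linked to inhibition, *Clec12a* (chr6:129342691-129365303, plus strand) encodes MICL, a receptor for uric acid crystals and dead cells that carries an inhibitory motif, and its human counterpart is a surface antigen of AML blasts. Its level was 44.3, 45.5 and 35.4 RPKM in mice 1.1, 1.2 and 1.4 and 56.6, 0.257 and 44.7 RPKM in mice 3.2, 3.3 and 3.5. Mouse 3.3 had 57 reads of this gene, while the other 5 mice had 7732 to 11346. The mean of the other 2 *Hoxa9*/*IRX3* mice was 50.7 RPKM, 197 times the level of mouse 3.3. The cohort difference of -1.75 (SE 1.58, limma adjusted p = 0.528) therefore rests on that mouse, and without it was 0.28 (limma adjusted p = 0.392).

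*Clec4a2* (chr6:123106428-123143999, plus strand) encodes DCIR, another receptor with an inhibitory motif. It was at 3.33, 3.38 and 3.04 RPKM in mice 1.1, 1.2 and 1.4 and at 1.26, 0.109 and 3.85 RPKM in mice 3.2, 3.3 and 3.5. The lowest value was again in mouse 3.3 (40 reads), mouse 3.2 was intermediate and mouse 3.5 was above the *Hoxa9*/MTV range. The log2 difference was -1.17 (SE 0.65, limma adjusted p = 0.313), and it was -0.44 without mouse 3.3 and -1.86 without mouse 3.5. *Clec4a3* (chr6:122952515-122969875, plus strand), a close relative of *Clec4a2*, stayed below the expression threshold. It had 47, 28 and 66 reads (0.194 to 0.393 RPKM) in *Hoxa9*/MTV and 20, 1 and 6 reads (0.00588 to 0.130 RPKM) in *Hoxa9*/*IRX3* mice. The cohorts did not overlap, and the exact two-sided permutation test gave p = 0.1, the smallest that 3 mice against 3 allow. Without the filter on low values its limma adjusted p was 0.102 and its log2 difference -0.51.

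*Clec10a* (chr11:70156197-70170834, plus strand) encodes MGL1, an endocytic receptor of macrophages and dendritic cells that binds galactose and N-acetylgalactosamine. It was at 0.734, 0.395 and 0.544 RPKM in mice 1.1, 1.2 and 1.4 and at 0.116, 0.00697 and 0.0171 RPKM in mice 3.2, 3.3 and 3.5. The cohorts did not overlap, but the *Hoxa9*/*IRX3* values rest on 15, 1 and 2 reads against 48 to 95 reads in *Hoxa9*/MTV. The means were 0.558 ± 0.170 and 0.0466 ± 0.0600 RPKM (SD, n = 3 each), with a log2 difference of -0.95 (SE 0.18, limma adjusted p = 0.0376). This gene is low throughout, so the pseudocount shrinks its difference, which was -2.21 with a pseudocount of 0.1. With single mice left out its adjusted p lay between 0.0294 and 0.151.

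**Figure D2:**
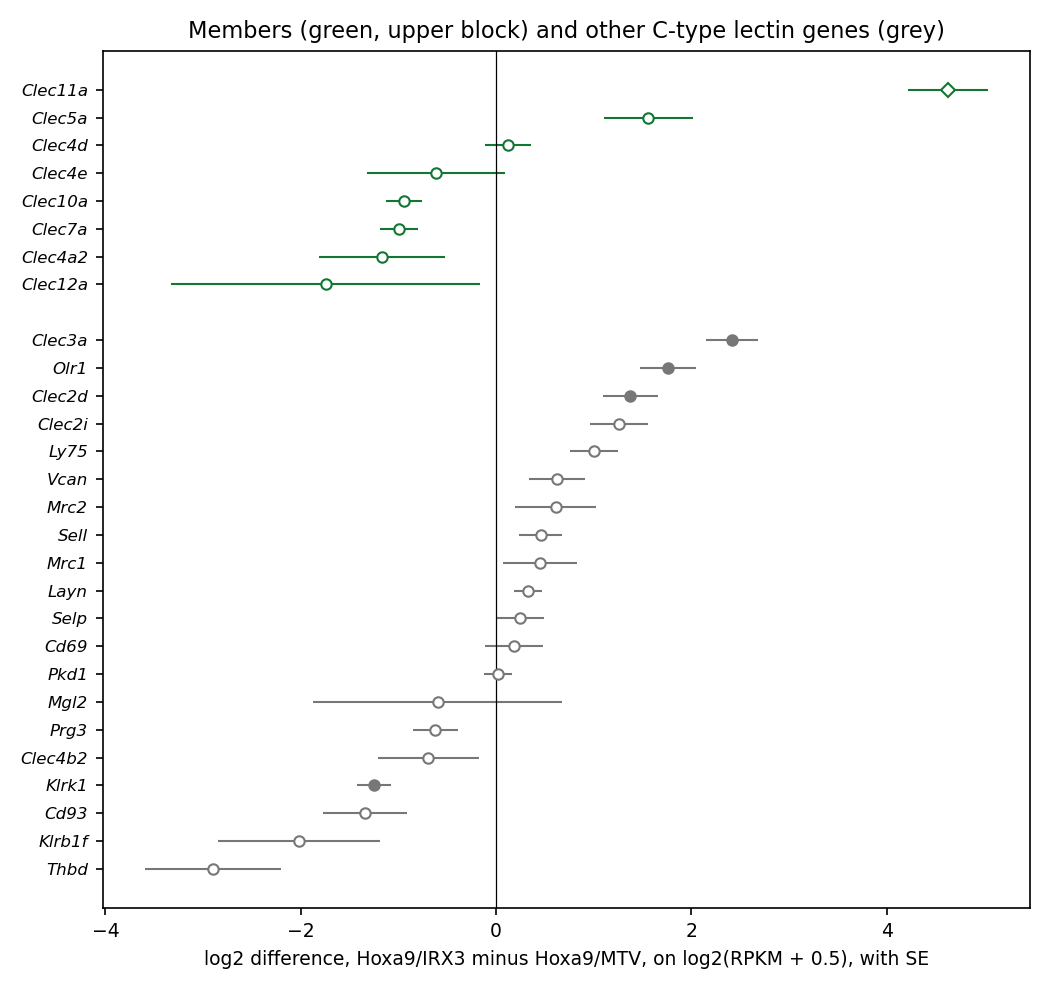
Difference between cohorts (*Hoxa9*/*IRX3* minus *Hoxa9*/MTV) on log2(RPKM + 0.5) with its SE, for the tested members of the 10 genes in the upper block and other C-type lectin genes below. Filled points were called; the open diamond is *Clec11a*, at 4.63, which was chosen on this difference and carries no test.

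The low values of mouse 3.3 were looked for across genes. In that library 65 of 9528 tested genes (0.682%) were at less than 0.1 times their level in each of the other 5 mice, and *Clec12a* and *Clec4a2* were among them, as were *Clec4b2*, *Mgl2* and *Mrc1* of the wider family. In each of the other 5 libraries 0.0525% to 0.630% of the tested genes were that far below the other mice, and 0 of the 10 genes described here were among them. *Mrc1* was high in mouse 3.2 alone, with 720 reads. It had 18, 9 and 9 reads in mice 1.1, 1.2 and 1.4, 0 in mouse 3.3 and 26 in mouse 3.5. *Clec4b2* was low in mouse 3.5 as well, with 21 reads there, 1 in mouse 3.3 and 412 in mouse 3.2. In mice 1.1, 1.2 and 1.4 it had 203, 332 and 194 reads. Leaving out mouse 3.3 changed the direction of *Clec12a* and moved the difference of *Clec4a2* from -1.17 to -0.44 and that of *Clec5a* from 1.56 to 1.08, and is shown for each gene in the plot of differences with single mice left out. Across the 6 mice *Clec4a2* and *Clec12a* had a Pearson r of 0.876, *Clec7a* and *Clec10a* one of 0.940, and *Clec11a* one of -0.939 with *Clec10a* and -0.894 with *Clec7a*, on log2(RPKM + 0.5). These values describe 6 libraries that fall into 2 cohorts, and carry no test.

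**Figure D3:**
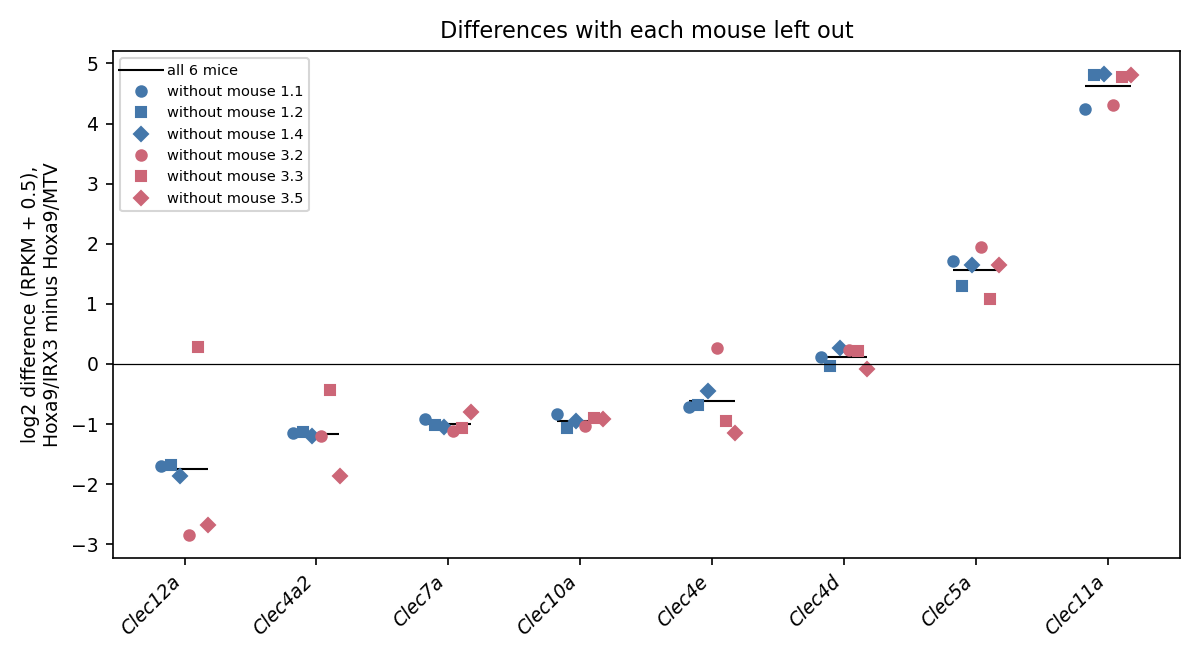
Log2 difference (*Hoxa9*/*IRX3* minus *Hoxa9*/MTV) of the tested lectin genes with each of the 6 mice left out in turn, as points with 1 marker per mouse, with a black dash for all 6 mice. *Clec11a* stays between 4.25 and 4.83, *Clec12a* moves from -1.75 to 0.28 without mouse 3.3, and *Clec4e* turns to 0.26 without mouse 3.2.

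Of 82 other C-type lectin genes listed for comparison, 79 were in the table, 48 had at least 1 read and 20 were tested. Among these 20, 3 were called higher, beside 1.10% of all tested genes, and 1 was called lower, beside 2.07% of all tested genes. Their median log2 difference was 0.29. Without overlap between the cohorts, 7 of the 20 were higher and 4 lower, beside 12.2% and 21.6% of all tested genes. An unadjusted p under 0.05 in limma was found in 10 of the 20, beside 2318 of all 9528 tested genes. The largest difference, in *Thbd*, was a fall from 14.8 to 2.44 RPKM (log2 difference -2.90, limma adjusted p = 0.0653, not called). *Cd93* fell from 267 to 119 RPKM (log2 difference -1.34, limma adjusted p = 0.122, not called). *Clec3a*, a soluble lectin of cartilage, had 0 reads in each *Hoxa9*/MTV mouse and was at 2.63, 2.98 and 1.24 RPKM in mice 3.2, 3.3 and 3.5. Its mean there, 2.29 ± 0.920 RPKM (SD, n = 3), was at least 52.7-fold higher than the mean of a floor of 3 reads in each *Hoxa9*/MTV library, and limma gave a log2 difference of 2.42 (SE 0.26, adjusted p = 0.00844). *Clec3a* passed the expression threshold through the *Hoxa9*/*IRX3* mice alone, and without that filter its limma adjusted p was 0.0223. *Olr1*, the scavenger receptor LOX-1 for oxidized lipoproteins, rose from 3.88 ± 1.17 to 14.3 ± 4.30 RPKM (SD, n = 3 each, log2 difference 1.76, limma adjusted p = 0.0244). *Clec2d*, a ligand of an inhibitory natural killer cell receptor, rose from 2.44 ± 1.08 to 6.79 ± 0.966 RPKM (SD, n = 3 each, log2 difference 1.37, limma adjusted p = 0.0445). *Klrk1*, the activating receptor NKG2D, fell from 0.916 ± 0.0471 to 0.105 ± 0.121 RPKM (SD, n = 3 each, limma adjusted p = 0.0160). It passed the threshold through the *Hoxa9*/MTV mice alone, and without the filter its limma adjusted p was 0.0257. Of the 20 tested genes 8 passed through 1 cohort alone, so that a difference was built into their passing. Leaving out any 1 of the *Hoxa9*/MTV mice 1.1, 1.2 and 1.4 left 0 of the 20 called. Calls over all 9528 tested genes also fell, from 105 higher and 197 lower to at most 28 and 46.

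The receptors above need partners inside the cell, so these were counted from a list of 28 genes. Of its 22 tested genes 0 were called higher and 2 were called lower, beside 1.10% and 2.07% of all tested genes. The cohorts did not overlap in 10 of the 22, all lower, beside 21.6% of all tested genes. The median log2 difference of the list was -0.34. *Fcer1g*, the FcR-gamma chain used by Mincle, MCL and dectin-2, was at 42.3, 41.3 and 43.2 RPKM in mice 1.1, 1.2 and 1.4 and at 18.6, 14.1 and 14.2 RPKM in mice 3.2, 3.3 and 3.5. It varied little within either cohort, and its log2 difference was -1.42 (SE 0.15, limma adjusted p = 0.00844). *Lat2*, the linker that becomes phosphorylated downstream of SYK, was at 9.50, 10.003 and 9.48 RPKM in *Hoxa9*/MTV and at 0.566, 2.02 and 3.06 RPKM in mice 3.2, 3.3 and 3.5 (log2 difference -2.26, SE 0.41, limma adjusted p = 0.0337).

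*Tyrobp*, the DAP12 chain that pairs with MDL-1, was at 18.1, 21.3 and 18.8 RPKM in mice 1.1, 1.2 and 1.4 and at 13.8, 5.25 and 10.1 RPKM in mice 3.2, 3.3 and 3.5. The cohorts did not overlap, and the log2 difference of -1.06 (SE 0.33) did not pass the test (limma adjusted p = 0.114), though it was called without mouse 3.2 (-1.35, limma adjusted p = 0.0456). In mouse 3.3 the lowest *Tyrobp* and the highest *Clec5a* of the 6 mice stood together. *Hcst*, which encodes the DAP10 chain, was at 3.10 to 4.92 RPKM in *Hoxa9*/MTV and at 1.53, 6.63 and 3.34 RPKM in mice 3.2, 3.3 and 3.5 (log2 difference -0.17, limma adjusted p = 0.836). *Syk* itself was at 5.36 to 5.57 RPKM in *Hoxa9*/MTV and at 4.26 to 5.74 RPKM in *Hoxa9*/*IRX3* mice (log2 difference -0.17, limma adjusted p = 0.480), and the log2 difference of *Card9* was -0.33 (limma adjusted p = 0.372). The kinase gene *Prkcd* had an adjusted p of 0.0236 in limma at a log2 difference of -0.79, which is under 2-fold and not called. Leaving out any 1 *Hoxa9*/MTV mouse left 0 genes of the list called, and leaving out mouse 3.2 gave 5 and mouse 3.3 gave 1. Over all tested genes, calls fell from 105 higher and 197 lower to at most 28 and 46 without 1 *Hoxa9*/MTV mouse. They were 152 and 259 without mouse 3.2, and 139 and 242 without mouse 3.3.

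**Figure D4:**
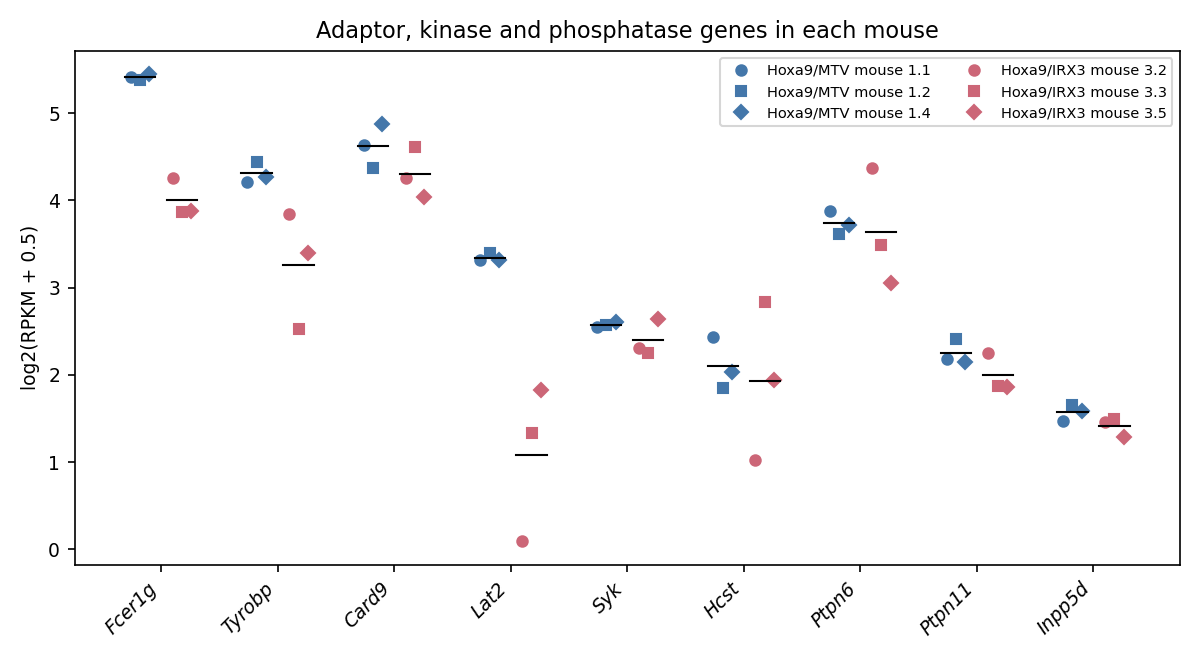
Level of adaptor and signaling genes of the lectin receptors in each mouse, as log2(RPKM + 0.5), with cohort means as bars. *Fcer1g* and *Lat2* were lower in every *Hoxa9*/*IRX3* mouse than in every *Hoxa9*/MTV mouse and were called, while *Syk*, at 4.26 to 5.74 RPKM in all mice, overlapped.

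The phosphatases recruited by inhibitory motifs were all tested, and 0 of 3 were called, beside 3.17% of all tested genes. At an unadjusted p under 0.05 in limma there were 0, beside 2318 of all 9528 tested genes. The log2 difference was -0.10 for *Ptpn6*, which encodes SHP-1 (limma adjusted p = 0.878), -0.25 for *Ptpn11*, which encodes SHP-2 (limma adjusted p = 0.353), and -0.16 for *Inpp5d*, which encodes the lipid phosphatase SHIP-1 (limma adjusted p = 0.410).

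Marker lists of the cell types that can express these lectins were read beside them. Called shares are to be read against 1.10% of all tested genes called higher and 2.07% called lower. Some markers passed the expression threshold through 1 cohort alone, so that a difference was built into their passing. They were 1 of 16 tested neutrophil markers (*Ly6g*) and 1 of 10 monocyte and macrophage markers. The same held for 2 of 4 dendritic cell, 1 of 5 mast cell and basophil and 2 of 3 B cell markers. The summed level of 16 monocyte and macrophage markers was 327 to 390 RPKM in *Hoxa9*/MTV and 203 to 215 RPKM in *Hoxa9*/*IRX3* mice. Of the 10 tested, 2 were called lower (*Cd68* and *Ccr2*) and 1 higher (*Vcam1*), while *C1qc* and *Marco* were listed at 0 in all mice. The summed level of 16 neutrophil markers was 3138 to 4621 RPKM in *Hoxa9*/MTV and 6917 to 7567 RPKM in *Hoxa9*/*IRX3* mice, with 3 of 16 called higher (*Elane*, *Retnlg* and *Ly6g*) and 0 lower. The median log2 difference of the 16 was 0.70. Without overlap between the cohorts, 7 were higher and 0 lower, beside 12.2% and 21.6% of all tested genes. *Elane* alone was at 614 to 1053 RPKM in *Hoxa9*/MTV and at 2237 to 3332 RPKM in *Hoxa9*/*IRX3* mice. The log2 differences of *Ltf* (the lowest of the list), *Mmp8* and *Ngp* were -0.99, -0.75 and -0.13 and did not pass the test. The 12 dendritic cell markers summed to 4.01 to 6.18 RPKM in *Hoxa9*/MTV and to 1.53, 0.173 and 6.02 RPKM in mice 3.2, 3.3 and 3.5, so that mouse 3.3 was lowest there too. Of these 4 were tested and 1, *Flt3*, was called lower. Of 9 mast cell and basophil markers, which summed to 16.1 to 21.8 RPKM in *Hoxa9*/MTV and 4.80 to 8.02 RPKM in *Hoxa9*/*IRX3* mice, 2 of the 5 tested were called lower (*Cpa3* and *Gata2*). The part of these cell types in the lectin values was not tested. The B cell genes *Ms4a1* and *Pax5* and the T and NK cell genes *Cd3d*, *Ncr1* and *Gzma* were listed at 0 in all 6 mice. Of 3 tested B cell markers 1, *Cd79b*, was called lower, while *Igll1* (log2 difference 3.92) and *Vpreb1* (1.08) were higher without overlap and were not called. The B cell markers summed to 6.45 to 7.33 RPKM in *Hoxa9*/MTV and to 2.02, 9.76 and 43.4 RPKM in mice 3.2, 3.3 and 3.5. The 1 tested marker of T and NK cells, *Nkg7*, was at 14.9 to 482 RPKM in *Hoxa9*/*IRX3* mice and was not called. The 10 T and NK cell markers summed to 22.7 to 33.0 RPKM in *Hoxa9*/MTV and to 100, 14.9 and 482 RPKM in mice 3.2, 3.3 and 3.5. Mouse 3.3 thus lay below every *Hoxa9*/MTV mouse in this sum. The 9 erythroid markers summed to at most 0.303 RPKM.

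Genes that start within 200 kb of the 10 genes were compared to see what lies around them. Of 31 tested neighbors, 4 were called higher and 1 lower, beside 1.10% and 2.07% of all tested genes, and 3 of these 5 are the lectin genes *Olr1*, *Clec2d* and *Klrk1* of the cluster on chromosome 6. Of the 31 neighbors, 5 passed the threshold through 1 cohort alone, among them the called *Klrk1* and *Tmem52b*. Without the filter on low values these were the 2 neighbors called. *Tmem52b*, which starts 39.8 kb from *Clec7a* and passed the threshold through *Hoxa9*/*IRX3* mice alone, rose with a log2 difference of 1.25 (SE 0.17, limma adjusted p = 0.0156), where *Clec7a* was lower. *Mgam*, which encodes the intestinal enzyme maltase-glucoamylase and starts 43.0 kb from *Clec5a*, rose with a log2 difference of 1.64 (SE 0.32, limma adjusted p = 0.0383). Around *Clec11a* 5 neighbors were tested and 0 were called by limma. An unadjusted p under 0.05 was found in 1 of them, beside 2318 of all 9528 tested genes. Without mouse 1.1, 1.2 or 1.4, 0 of the 31 neighbors were called, and without mouse 3.3 or 3.5 there were 3 and 2. Calls over all tested genes fell likewise without a *Hoxa9*/MTV mouse, from 105 higher and 197 lower to at most 28 and 46. They were 139 and 242 without mouse 3.3, and 106 and 182 without mouse 3.5.

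The genes whose levels followed *Clec11a* most closely over the 6 mice were taken from the 6972 tested genes whose mean over mice was 1 RPKM or more. By Pearson r on log2(RPKM + 0.5) these were *Morf4l2* (r = 0.998), *Ube2j1* (r = 0.991), *Klf9* (r = 0.991), *Frat2* (r = 0.985) and *Mogat2* (r = 0.984). They differ in the size of their change. *Morf4l2* was at 10.5 to 11.1 RPKM in *Hoxa9*/MTV and at 13.6 to 14.1 RPKM in *Hoxa9*/*IRX3* mice, whereas *Klf9* was at 0.101, 0.623 and 0.753 RPKM in mice 1.1, 1.2 and 1.4 and at 5.40, 4.23 and 3.24 RPKM in mice 3.2, 3.3 and 3.5. In *Morf4l2*, *Ube2j1*, *Klf9* and *Frat2*, as in *Clec11a*, mouse 1.1 was the lowest and mouse 3.2 the highest. In *Mogat2* mouse 1.2 was the lowest and mouse 3.2 the highest. The genes were picked for their r with *Clec11a* over the same mice, so a shared order was largely built in. These r describe 6 mice that fall into 2 cohorts.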

How the data were processed

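Polyadenylated RNA of sorted KIT+Gr1+ leukemia cells from 6 mice, 3 per cohort, was sequenced by the authors, who used Bowtie2 2.2.1 with GRCm38, filtered alignments by quality with SAMtools 0.1.19, assigned reads to Ensembl genes and deposited a table of RPKM. Bowtie2 does not split reads at introns, and the quality filter drops reads that fit several places, so close relatives (*Clec4a2*, *Clec4a3* and *Clec4b2*, the *Clec2* genes, *Clec10a* and *Mgl2*) are uncertain. The authors' RPKM divide by the gene with its introns. The reads behind them were recovered from the steps between low values and came out whole, to a tolerance of 0.01, in all mice for 65.0% of tested genes. No count test was used for the main result.

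Genes of the GENCODE M21 types protein coding and polymorphic pseudogene (the type of *Clec7a*) with over 0.5 RPKM in at least 1 mouse, 9528 in all, were fitted with limma 3.58.1 in R 4.3.3 (lmFit, eBayes with trend) on log2(RPKM + 0.5), with Benjamini-Hochberg adjustment over all of them. Tables and plots were made in Python 3.11.15 with pandas 2.3.3 and matplotlib 3.10.9, and the fit was tested on simulated data. Mouse numbers are not shared by the cohorts. The 10 genes and the gene lists were chosen with earlier results of these data known. The genes named are the 10, other lectins and neighbors that were called, *Tyrobp*, *Hcst*, *Fcer1g*, *Syk*, *Card9* and called genes of the adaptor list, the phosphatases, *Itga11* and *Itgb1*, defining markers, and the 5 genes most like *Clec11a*. *Prkcd*, *Itga10*, *Clec4b2*, *Mgl2*, *Mrc1*, *Thbd*, *Cd93* and several markers were named after their values were seen. Alternatives were other pseudocounts (0.1 and 1), filters, scalings, no trend, the study's criterion, limma voom on recovered reads and each mouse left out. Exon length and protein-coding type alone were added after seeing the data. Promoters came from RefSeq on GRCm38.p6.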

Additional observations from a re-analysis of the deposited data

How the results depend on the processing

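The *Clec11a* difference lay between 4.25 and 4.84 on the log2 scale under every alternative run. The count of the other 9 genes called, 0, was 2 with a pseudocount of 0.1, the study's criterion, limma voom and exon length, and 0 to 3 with single mice left out, 3 of them without mouse 3.2. Other lectins called, 4, were 2 without a filter on low values, 7 by the study's criterion and 0 to 5 with single mice left out. Adaptor and SYK pathway genes called, 2, were 1 without the filter and 0 to 5 with single mice left out. Neighbors called, 5, were 3 with a pseudocount of 1, 2 without the filter and 0 to 6 with single mice left out. Leaving out mouse 1.1, 1.2 or 1.4 gave 0 calls in each of these lists. Over all 9528 tested genes, calls fell as well, from 105 higher and 197 lower to 28 and 46, 25 and 41, and 24 and 37. Without mouse 3.2, 3.3 or 3.5 they were 152 and 259, 139 and 242, and 106 and 182. The study's criterion called 215 of all tested genes higher and 451 lower. The phosphatases stayed at 0 called throughout.

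Of the differences of single genes under alternatives, 329 kept their direction and their side of the threshold, 39 were no longer past it, 12 came past it and 7 changed direction. *Clec3a*, at 0 in one cohort, has no ratio of means by the study's criterion. The 7 were *Clec4e* without mouse 3.2 (0.26, in a range of -1.16 to 0.26 with single mice left out), *Clec4d* without mouse 1.2 (-0.03) or 3.5 (-0.079, in a range of -0.079 to 0.27), *Clec12a* without mouse 3.3 (0.28, range -2.84 to 0.28), *Hcst* without mouse 3.2 (0.28, range -0.62 to 0.28) and *Ptpn6* by the study's criterion (0.0057) or without mouse 3.5 (0.195, range -0.47 to 0.20). The cause of these changes was not tested. Depth limits *Clec4n*, *Clec4a3* and *Clec10a*, which had at most 16, 66 and 95 reads in a library. No paired analysis was possible because the cohorts share no mouse number.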

Other observations

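The genes most like *Clec12a* over the 6 mice were looked up after its values were seen. By Pearson r on log2(RPKM + 0.5) among 6972 genes, *Mtdh* (r = 0.992) and *Siglec5* (r = 0.992) came first. *Siglec5*, a sialic acid receptor of myeloid cells with inhibitory motifs, was at 9.86, 12.9 and 12.6 RPKM in mice 1.1, 1.2 and 1.4 and at 12.0, 0.212 and 10.4 RPKM in mice 3.2, 3.3 and 3.5. Mouse 3.3 was thus low in both genes, while the other 2 *Hoxa9*/*IRX3* mice lay within or next to the *Hoxa9*/MTV range. The r rests on that 1 library.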
